A study of Mus musculus with 8 samples.

Results

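Primitive endoderm regulators and markers were examined in mouse embryonic stem cells (mESCs). The members were 10 listed genes: the transcription factors Gata4, Gata6, Sox7, Sox17 and Hnf4a, the growth factor receptor Pdgfra, the endocytic proteins Dab2, Cubn and Amn, and the secreted protein Afp. They were found by an exact match of the gene name, which gave a row for 9 of the 10 among 19429 genes. Afp had no row. The rule itself uses no measured value, although the list was drawn up with earlier results of these data known.

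The cells were of the line LF2, passaged in serum with leukemia inhibitory factor. The 8 libraries described came from targeted clonal lines, each grown from a single cell, in which both copies of Tet1 carried a C-terminal FLAG tag and a reporter for fluorescence. WT lines 2 and 5 kept the wild-type TET1 sequence, and in D2018A lines 7 and 8 an aspartate of TET1 was changed to alanine, which weakens binding of OGT, the enzyme that attaches O-GlcNAc to proteins. Each line was sequenced as 2 technical replicates, so each genotype had 4 libraries from 2 lines. The WT cells also carried a deletion, described by the study, that the D2018A cells lacked.

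The values below are levels over all libraries together. The value used for each gene was the authors' mean normalised count, in which the counts of each library were scaled by its size factor and then averaged. It is 1 value per gene, with no value for a line, a genotype or a replicate. Accordingly no standard deviation or n accompanies a level, and WT and D2018A cells were not compared here. The smallest means fell on 12 steps, each taken as a single read in a single library, where 8 samples were described. Read this way, the mean also covers at least 4 libraries whose cells are not given in the sources used here. The number is inferred from the steps alone, and the part of these libraries in each level was not tested. Size factors read from the steps ran from 0.726 to 1.47, and the means summed to 10937569 normalised counts.

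The primitive endoderm is the extraembryonic layer that forms from the inner cell mass beside the epiblast, the source of embryonic stem cells. FGF4 made by epiblast precursors acts through FGF receptors and GRB2 to favour Gata6 over Nanog, and Pdgfra, Sox17, Gata4 and Sox7 are further genes of the layer. It gives rise to the parietal endoderm, which lays down basement membrane, and to the visceral endoderm, which takes up nutrients by endocytosis and secretes serum proteins such as alpha-fetoprotein. In stem cell cultures these genes are used as markers of cells that have left the pluripotent state towards this lineage.

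To show where transcription of 2 of the members starts, the RefSeq windows of Hnf4a and Dab2 were read on GRCm38.p6. Both genes have 2 such windows, each 250 bases before to 50 bases after a start, on the plus strand. Capitals mark CpG dinucleotides, the sites at which cytosine is methylated and which TET enzymes oxidise. The Hnf4a windows lie at chr2:163506607-163506906 and chr2:163546905-163547204, and the Dab2 windows at chr15:6299539-6299838 and chr15:6386498-6386797.
Hnf4a upstream start: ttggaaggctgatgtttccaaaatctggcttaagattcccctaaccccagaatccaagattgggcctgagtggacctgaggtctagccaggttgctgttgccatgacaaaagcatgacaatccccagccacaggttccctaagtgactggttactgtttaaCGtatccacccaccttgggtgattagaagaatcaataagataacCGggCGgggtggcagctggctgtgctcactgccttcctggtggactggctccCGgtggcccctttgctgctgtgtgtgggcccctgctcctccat
Hnf4a downstream start: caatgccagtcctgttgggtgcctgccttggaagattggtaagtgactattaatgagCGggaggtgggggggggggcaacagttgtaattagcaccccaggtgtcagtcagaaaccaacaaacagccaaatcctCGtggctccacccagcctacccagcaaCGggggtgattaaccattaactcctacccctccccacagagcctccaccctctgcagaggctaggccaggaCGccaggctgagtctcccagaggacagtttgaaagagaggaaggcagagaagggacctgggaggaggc
Dab2 upstream start: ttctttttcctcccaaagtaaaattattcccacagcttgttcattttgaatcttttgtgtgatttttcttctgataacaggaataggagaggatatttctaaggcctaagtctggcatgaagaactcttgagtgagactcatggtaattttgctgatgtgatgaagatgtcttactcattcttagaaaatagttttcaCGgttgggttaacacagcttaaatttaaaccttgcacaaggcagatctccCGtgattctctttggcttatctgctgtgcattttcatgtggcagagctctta
Dab2 downstream start: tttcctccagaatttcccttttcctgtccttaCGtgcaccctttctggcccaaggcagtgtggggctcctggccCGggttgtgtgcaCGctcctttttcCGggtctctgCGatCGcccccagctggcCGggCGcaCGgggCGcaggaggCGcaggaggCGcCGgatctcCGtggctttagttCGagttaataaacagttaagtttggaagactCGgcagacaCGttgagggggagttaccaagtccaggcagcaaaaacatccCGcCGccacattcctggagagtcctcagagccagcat

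The downstream Dab2 window held 19 CpG dinucleotides and the upstream one 2. Each Hnf4a window held 4. A window was classed as CpG-rich when its GC share was at least 50% and its ratio of observed to expected CpG at least 0.6. By that measure the downstream Dab2 window, with a GC share of 59.3% and a ratio of 0.72, was the 1 CpG-rich window among 8 windows of 6 members, against 33.5% of all 32851 windows. The ratio was 0.515 for Amn, 0.344 for Cubn, 0.256 for Pdgfra and 0.25 for Afp. The remaining 4 members, the transcription factors Gata4, Gata6, Sox7 and Sox17, had no window in the set used. The count of CpG-rich windows therefore leaves out all listed factors but Hnf4a. A mean per gene cannot show which start was used.

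Short motifs were also counted on both strands of these windows. AGATAA, a core bound by GATA factors, occurred in 2 of the 8 windows, the upstream windows of Hnf4a and Dab2, and in 11.2% of all windows. AACAAT, a SOX core found in 10.7% of all windows, and CAAAGTCCA, an HNF4 core found in 0.475%, occurred in none of the 8. These matches are letters in a window, not binding sites.

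Next, the levels of the transcription factors were compared. Levels of different genes are given per kilobase of exon, that is, the authors' mean normalised count divided by the length of all exons of the gene in GENCODE vM21. The interval beside a level is a 95% exact Poisson interval at the fewest reads its mean allows. It covers counting error only, not the spread between lines, and reads without molecular identifiers are not independent molecules. The median over the 16922 protein-coding rows with a length was 24.5 per kilobase. Genes without a row enter neither this median nor the percentiles, and the smallest mean with a row was 0.0565. A median over all protein-coding genes was not taken.

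Sox7 and Hnf4a stood above the other factors. Sox7, a SoxF factor of parietal and visceral endoderm and of vessels (chromosome 14, 63943673 to 63950732, plus strand), had a mean of 330.5 normalised counts, or 100.2 per kilobase (interval 96.6 to 104). Hnf4a, a nuclear receptor that drives the hepatocyte-like programme of visceral endoderm (chromosome 2, 163506808 to 163572910, plus strand), had a mean of 452.7, or 93.8 per kilobase (90.9 to 96.7). These intervals overlapped, and with the longest transcript as the length Hnf4a, at 103.8, lay above Sox7. Of all protein-coding rows, 74.0% lay below Sox7 and 72.9% below Hnf4a on the per-kilobase scale.

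Gata4, a zinc finger factor of primitive endoderm and heart (chromosome 14, 63198922 to 63271692, minus strand), had a mean of 76.8 normalised counts, or 19.7 per kilobase (18.2 to 21.2). Among protein-coding genes with a row it lay below the median, at percentile 46.5, and Sox7 was 5.09-fold higher. Gata4 and Sox7 are separated by 671980 bases on the same chromosome.

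Gata6 and Sox17 were low. Gata6, the factor that acts earliest in the lineage (chromosome 18, 11052510 to 11085635, plus strand), had a mean of 17.6 normalised counts, or 2.71 per kilobase (2.29 to 3.17), and Gata4 was 7.27-fold higher. With the longest transcript as the length Gata6 was at 4.65 per kilobase, and on the scale of mean counts Gata4 was 4.36-fold higher. Sox17, a SoxF factor that acts between Gata6 and Sox7 (chromosome 1, 4490931 to 4497354, minus strand), had a mean of 10.2, or 2.13 per kilobase (1.71 to 2.63). Per kilobase Sox7 was 47.0-fold above Sox17, and that ratio is also the whole range of the 5 factors. By mean count Sox7 was 32.5-fold and Hnf4a 44.5-fold above Sox17. On the per-kilobase scale 25.9% of protein-coding rows lay below Gata6 and 24.2% below Sox17, and the counting intervals of Gata6 and Sox17 overlapped.

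**Figure D1:**
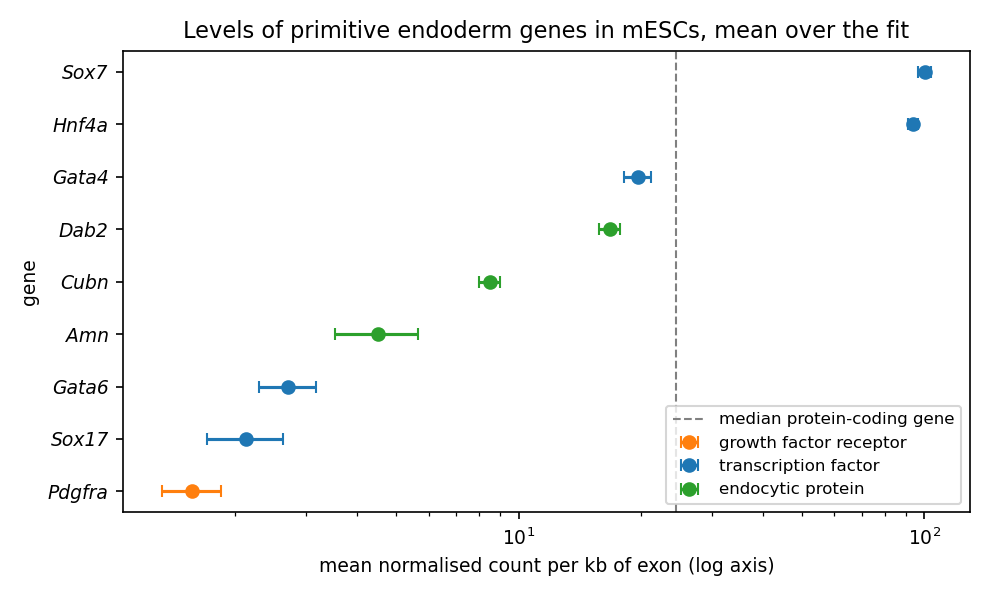
Authors' mean normalised count per kilobase of exon (log axis) for the 9 members with a row, coloured by role, with 95% Poisson counting intervals as bars and the median protein-coding gene, 24.5, as a dashed line. Sox7 at 100.2 and Hnf4a at 93.8 lie above the line and the other 7 lie below it, down to 1.57 for Pdgfra.

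Per kilobase the receptor was the lowest member, while its mean count lay above those of Sox17 and Amn. Pdgfra, the receptor for PDGF-A and an early surface marker of primitive endoderm (chromosome 5, 75152292 to 75198215, plus strand), had a mean of 15.7 normalised counts, or 1.57 per kilobase (1.32 to 1.85). It lay at percentile 22.1 of protein-coding rows, and its interval overlapped that of Sox17. Its ligand gene Pdgfa was at 293.3 per kilobase, 187-fold above the receptor gene. The mean counts of ligand and receptor were 914.8 and 15.7, a smaller ratio. Pdgfrb, the paralog, was at 15.3 per kilobase, 9.74-fold above Pdgfra.

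Per kilobase the endocytic proteins lay between the highest and the lowest factors. Cubn encodes cubilin, a peripheral membrane receptor for vitamin B12 with intrinsic factor and for other ligands, Amn encodes amnionless, which anchors cubilin in the membrane, and Dab2 encodes an adaptor that links such receptors to clathrin. Dab2 (chromosome 15, 6299788 to 6440712, plus strand) had a mean of 123.1 normalised counts, or 16.8 per kilobase (15.8 to 17.8). Cubn (chromosome 2, 13276338 to 13491813, minus strand) had a similar mean of 126.7, but over 14935 exon bases, which gave 8.49 per kilobase (7.99 to 9).

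Amn (chromosome 12, 111271095 to 111276426, plus strand) had the smallest mean of all members, 8.28 normalised counts. Over the 12 libraries taken from the steps this corresponds to between 72 and 147 reads. The exons of Amn span only 1843 bases, so its level was 4.49 per kilobase (3.52 to 5.66). The ratio of Cubn to Amn was thus 15.3 on the scale of mean counts and 1.89 per kilobase. Per kilobase the 3 endocytic members spanned a 3.73-fold range, and all 3 lay below the median protein-coding gene. By mean count Dab2 and Cubn lay above the protein-coding median, which was 106. Lrp2, which encodes megalin, the partner of cubilin in uptake, was at 17.8 per kilobase, 2.1-fold above Cubn.

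Of the secreted products no level can be given for Afp, the fetal serum protein of visceral endoderm and liver. The table holds no gene with a mean of 0, its smallest mean being 0.0565, and Afp was without a row, as were Alb, Afm and Gc, the other genes of the albumin family, and Ttr, the transthyretin gene. Whether any read fell on these genes was not analysed here.

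Ranked per kilobase, the members ran Sox7, Hnf4a, Gata4, Dab2, Cubn, Amn, Gata6, Sox17 and Pdgfra. Of the 8 pairs of neighbours in this order, 3 had overlapping counting intervals: Sox7 with Hnf4a, Gata6 with Sox17, and Sox17 with Pdgfra. For the other 5 pairs the difference exceeded counting error with the length of all exons, while the spread between lines is unknown. With the longest transcript as the length, Dab2, at 26.4, lay above Gata4, at 22.6, and Amn, at 4.87, lay close to Gata6, at 4.65. By mean count Gata6, at 17.6, and Pdgfra, at 15.7, lay above Amn, at 8.28, and Pdgfra also lay above Sox17, at 10.2. Sox7 and Hnf4a together made up 77.7% of the summed level of the 9 members, which was 249.8 per kilobase. A mean of at least 10 normalised counts was reached by 8 of the 9, Amn being the exception. Most protein-coding rows also reached it. On the scale of mean counts 25.4% of them lay below Amn and 26.9% below Sox17, whose mean was 10.2.

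The members were also set beside their paralogs. Among the 6 GATA genes Gata4 was at 19.7 per kilobase, Gata2 at 18.9 and Gata1 at 18.2, the latter both factors of blood formation. Their order depended on the length used, since with the longest transcript Gata2 was at 28.6, Gata1 at 23.3 and Gata4 at 22.6. Gata3 was at 3.48 and Gata5 lowest at 0.295. Of the SoxF genes, Sox18, a factor of vessels and lymphatics, was at 7.04, between Sox7 and Sox17. Dab1, the adaptor of Reelin signalling in neurons, was at 55.3, 3.3-fold above Dab2. Hnf4g, the paralog of Hnf4a, had no row.

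**Figure D2:**
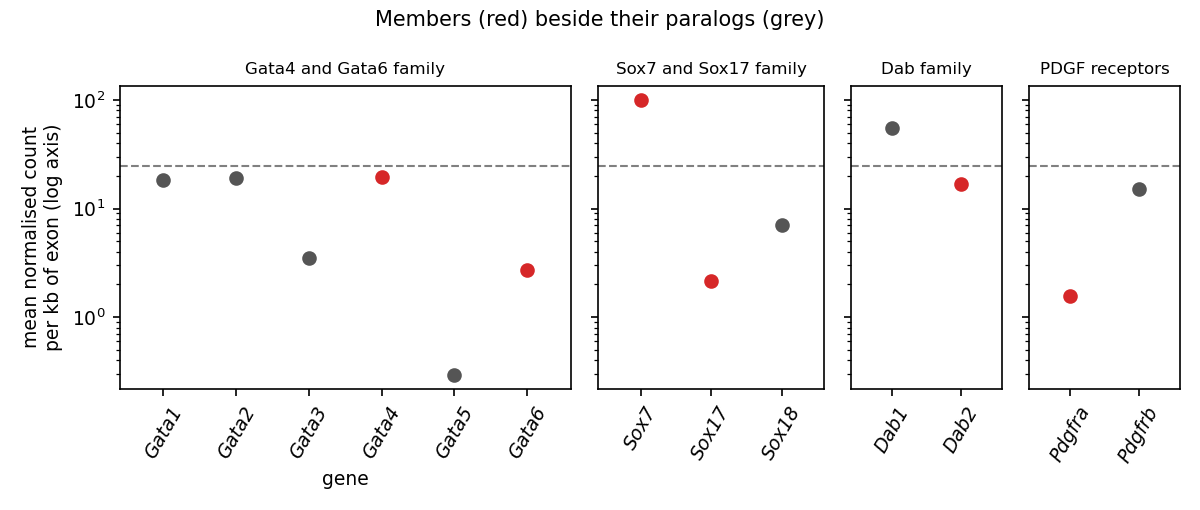
Authors' mean normalised count per kilobase of exon (log axis) for members (red) and their paralogs (grey), with the median protein-coding gene, 24.5, as a dashed line. Gata4 at 19.7 lies level with Gata2 at 18.9 and Gata1 at 18.2, Sox7 lies above Sox17 and Sox18, and Dab2 and Pdgfra lie below Dab1 and Pdgfrb.

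Other genes of the lineage differed by role. All 7 basement membrane genes lay above the median protein-coding gene, from 46.8 per kilobase for Lamb1, a laminin chain, to 1871 for Nid2, nidogen-2. Stem cells also make basement membrane, so these genes do not mark the lineage alone. All 4 further transcription factors examined lay below it, from 1.46 for Foxq1 to 5.13 for Cited1, a coactivator. Of 4 further endocytic genes 2 lay above it, and they ranged from 9.09 for the lysosomal protease gene Ctsl to 394.7 for Lgmn, another lysosomal protease. Of 7 further secreted products, 6 had a row and none lay above it, from 0.408 for Apob to 19.5 for Spink1.

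The signals that act on the lineage were mostly high. Of 7 FGF and PDGF pathway genes, 5 lay above the median protein-coding gene, with Fgf4 highest at 1362 per kilobase. Fgfr2, an FGF receptor enriched in primitive endoderm, was lowest at 4.85, and Fgfr1, the receptor shared with the epiblast, was 43.5-fold higher than Fgfr2.

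As a check of the labelled cell type, 10 pluripotency genes were examined. All 10 lay above the median protein-coding gene, from 519.5 per kilobase for Zfp42 to 3817 for Esrrb. The lowest of them was 5.18-fold above Sox7, and their summed level was 67.7-fold that of the 9 members. In bulk cultures a small number of cells with much of a transcript and a low level in every cell cannot be told apart.

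Markers of other cell types that also use some of these genes were measured in the same way. Gata4, Gata6 and Pdgfra are expressed in fibroblasts and heart, and Sox7 and Sox17 in endothelium. Of 10 fibroblast markers 6 had a row, with Thy1 highest at 64.8 per kilobase and Col3a1 lowest at 0.00948, and their levels summed to 108.2. Lum, Dcn, Postn and Fap had none. The mean of Col3a1 fell on a step, taken above as a single read in a single library. All 8 endothelial markers had a row, from 0.734 for Erg to 7.04 for Sox18, and summed to 24.9. All 7 cardiac markers had a row, from 0.129 for Actc1 to 97.4 for Myl7, and summed to 103.3. Myl7 made up most of this cardiac sum, the median of the list being 0.811, and Thy1 most of the fibroblast sum.

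The 8 trophectoderm markers ran from 0.192 per kilobase for Elf5 to 240.2 for Tead4, which is also expressed in stem cells, and summed to 347.8. Tead4 made up most of that sum. The 8 markers of definitive endoderm and mesendoderm ran from 0.0196 for Lhx1 to 47.8 for Eomes and summed to 68.5. Eomes is also among the trophectoderm markers, so it enters both sums, and it makes up most of the sum of 68.5. The mean of Lhx1 also fell on a step, taken as a single read in a single library. Sox7 and Hnf4a lay above every listed fibroblast, endothelial and definitive endoderm marker, an order that did not hold for fibroblast markers when the longest transcript gave the length. The trophectoderm marker Tead4 lay above both. With the length of all exons the cardiac marker Myl7, at 97.4, lay above Hnf4a, at 93.8. Amn, Gata6, Sox17 and Pdgfra lay within the range of all 5 lists. The part of other cells in the members' levels was not tested.

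**Figure D3:**
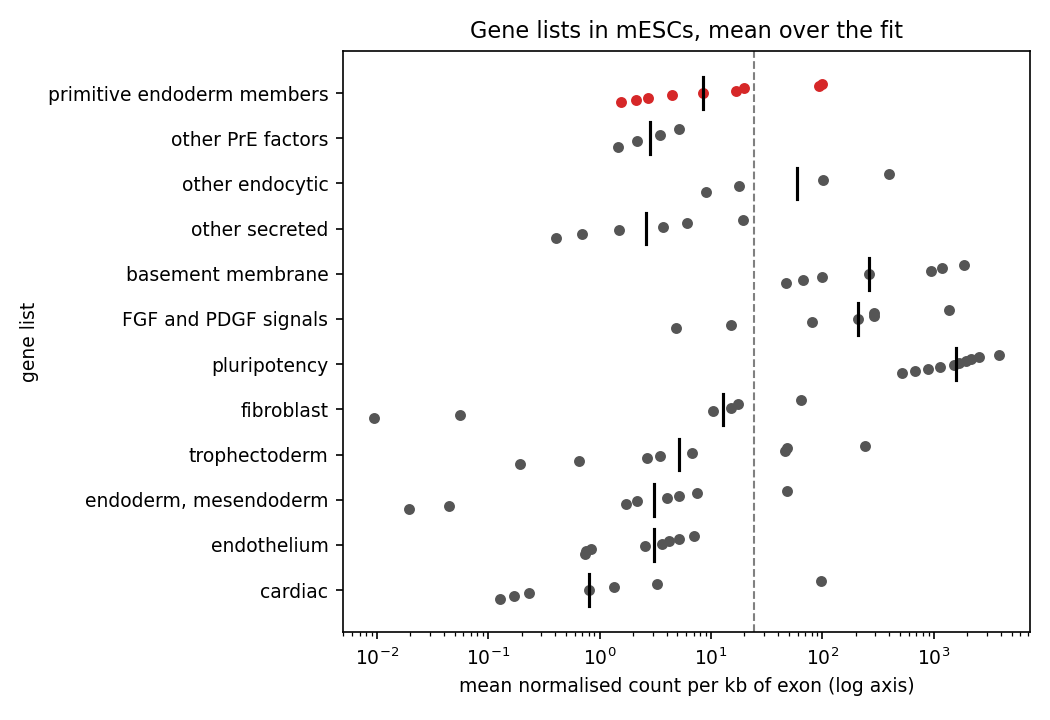
Authors' mean normalised count per kilobase of exon (log axis) for each gene of 12 lists, 1 point a gene, with the median of each list as a black bar and the median protein-coding gene, 24.5, as a dashed line. The 9 members (red) run from 1.57 to 100.2 with a median of 8.49, the pluripotency genes from 519.5 to 3817, and the basement membrane genes from 46.8 to 1871.

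Finally, the sequence that the members share with other genes was measured. Reads were 50 bases long. No source used here says whether strand entered the counting or how reads in shared parts were treated. Whether sharing raised or lowered a level is therefore unknown. Gata4, Hnf4a and Amn shared no 50-base stretch with transcripts of another gene. For Sox17 15.0% of stretches were shared, all with Gm37587, a transcript on the opposite strand whose exons cover 16.8% of the exon bases of Sox17. Without strand, reads of Sox17 and Gm37587 in that part cannot be told apart. The share was 4.93% for Pdgfra, 2.14% for Dab2, 1.85% for Cubn, 0.682% for Gata6 and 0.0615% for Sox7. No stretch was shared between Gata4 and Gata6 or between Sox7 and Sox17. The antisense gene Hnf4aos shared no exon base with Hnf4a and had a mean of 0.44 normalised counts.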

How the data were processed

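Ribosomal RNA was removed, total RNA libraries were prepared, and the authors used STAR 2.5.3a to align single-end reads (50 bases) to GRCm38.p6 and to obtain counts per gene. The deposited value used here is the authors' mean signal for each gene, that is, counts normalised with DESeq2 1.20.0 and averaged over all libraries of their fit. The remaining value columns of the deposited table hold the authors' own comparison of D2018A with WT (fold change, its error, statistic and p-values) and were not used. A count test on the sums of each line had been planned, and it could not be run on a mean over all libraries.

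Members and gene lists were chosen with earlier results of these data known. All members were named, with their paralogs and the highest and lowest gene of each list. Further genes named for context (Pdgfa, Lrp2, Fgfr1, Hnf4aos, Gm37587) and those without a row were chosen after their values were seen. Of 19429 identifiers, 19342 matched GENCODE vM21, which gave exon lengths, and 39 rows had no name. A step in the smallest means was a value shared by at least 30 genes that was not a sum of lower steps. The geometric mean of the 12 size factors so obtained was 1.02. An item of the lists and a motif are not reported here. The step search was tested on simulated data, where it misses a library whose step equals a sum of lower steps. Promoter windows were from RefSeq, for 27025 genes. Python 3.11.15, pandas 2.3.3 and scipy 1.17.1 were used. No test was made, so no p-value is given. Alternatives were the length used, the genes that gave the median, the count threshold, the stretch length and the promoter window.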

Additional observations from a re-analysis of the deposited data

How the results depend on the processing

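No paired analysis was possible because 1 mean per gene over all libraries was used, so replicates could not be left out or blocked, and the planned normalisation and count alternatives were not run. Of the 9 members, 2 lay above the median protein-coding gene with a row per kilobase, and 4 did without length correction, which raises long genes. The number was 2 with the longest transcript or with rows of a mean of at least 1, and 3 over all rows. At least 10 normalised counts were reached by 8 members, at least 1 by 9, and at least 100 by 4. The median mean over protein-coding rows was 106. Above every fibroblast marker lay 2 members, and 0 with the longest transcript. Above every cardiac marker lay 1, against 2 with the longest transcript and 5 without length correction. Both alternatives to these marker counts were chosen after seeing the data. With the longest transcript, 7 of the 9 levels per kilobase moved beyond counting error, all upward because that length is shorter, and Hnf4a with Sox7 and Dab2 with Gata4 changed places. With 36-base stretches the shared portion was 0.277% for Sox7 and 5.41% for Pdgfra, and the other 8 members stayed within the binomial interval. The number of members with a CpG-rich window was 1 also in the 250 bases before the start. Depth leaves Amn, Sox17, Pdgfra and Gata6 with the widest counting intervals relative to their levels.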
